A study of Mus musculus with 2 samples.

Results

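The genes described here are 8 genes of the astrocyte endfoot, the part of the cell that wraps blood vessels, and they were chosen by name for their part in water and potassium handling: *Aqp4*, *Dag1*, *Dtna*, *Kcnj10*, *Kcnj16*, *Slc4a4*, *Mlc1* and *Hepacam*. All 18 probes that carry one of these symbols are reported, out of 56605 probes on the array, and the 8 genes are set against 22008 genes with a signal well above background on either array. Striatal RNA was hybridised to 2 single-colour arrays, 1 for wild-type (WT) and 1 for connexin 30 knockout (Cx30 KO) mice. Each array held the pooled RNA of 2 males, aged 8 weeks, whose MPTP course was 20 mg/kg given 4 times, 2 h apart, with the striatum taken 1 day after it. MPTP is a neurotoxin that damages the dopaminergic terminals of the striatum. Connexin 30 is an astrocyte gap junction protein encoded by *Gjb6*. The labels give the strain as C57BL/6J for WT and Cx30-LacZ for Cx30 KO, and the WT controls are described as non-mutant offspring of heterozygous parents. Both pools came from MPTP-treated mice. Arrays of saline-treated mice were not analysed here, and so the comparison is between genotypes and holds no measure of what MPTP itself changed.

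Aquaporin-4 is the main water channel of astrocytes and is concentrated in the endfeet, where the dystroglycan complex anchors it to the basal lamina around vessels. The inwardly rectifying potassium channels of the same membrane take up potassium that active neurons release, and the bicarbonate cotransporter couples this to the control of pH. MLC1 and GlialCAM form a complex at contacts between astrocytes that takes part in the control of cell volume, and loss of either causes a leukoencephalopathy with brain swelling.

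Each value rests on 60-base probes printed in 1 spot each. The first 30 bases are shown for 8 probes that were well above background on both arrays, because the values of *Kcnj10*, *Kcnj16*, *Mlc1*, *Hepacam* and *Dag1* each depend on a single sequence. They are written 5′ to 3′ as the array files give them, all in lower case, and positions refer to mm9.
*Kcnj10* (NM_001039484, chr1:174304062-174304121, + strand): gaaacagaagaatctagggatgatttctct
*Kcnj16* (NM_001252210, chr11:110889223-110889282, + strand): ttataacatgctttgacacgcctgatggct
*Slc4a4* (NM_018760, chr5:89663826-89663885, + strand): aagatcctcaacattcctcgaacgccacac
*Slc4a4* (NM_018760, chr5:89667693-89667752, + strand): cctttgtcagtcacgtgttgctgtttaata
*Slc4a4* (ENSMUST00000113216, chr5:89471169-89471228, + strand): accctgagctctgtgtgttggcaaatgtat
*Mlc1* (NM_133241, chr15:88786336-88786395, − strand): ggggtctgaaaatcgtctcttgtatacttt
*Hepacam* (NM_175189, chr9:37193184-37193243, + strand): tggttttaaccattcatgctcttcttcctg
*Dag1* (NM_010017, chr9:108108324-108108383, − strand): ctggggaggagtgccagcaatagttcatag

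The scanner software gives each spot a processed signal in arbitrary units together with an error, shown here after ±, which covers the spot and not the mice. For ratios, the signals were divided by the 75th percentile of their array (401.2 for WT, 381.8 for Cx30 KO), and the log2 ratio is Cx30 KO minus WT. A gene is called lower at a ratio of at most 0.66 and higher at a ratio of at least 1.5, with its brightest probe, the one of highest mean scaled log2 signal over both arrays, standing for it. Of the 22008 genes, 5.63% were called lower and 5.61% higher, and the median log2 ratio was 0.03. Single spots had an SD of 0.07 in the log2 ratio, and different probes of a gene had an SD of 0.26 (7147 genes). The scanner error grew in proportion to the signal at bright probes. It gave nearly the same error of the log2 ratio, 0.20, for each of them. A ratio beyond its scanner error is thus close to one past a fixed fold limit. With 1 array for each genotype there was no replicate and no test. The label check was clear, as *Gjb6* read 1788 ± 179 in the WT pool against 111 ± 11.6 in the Cx30 KO pool.

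Of the 8 endfoot genes, *Aqp4* was the only one called lower in Cx30 KO, and 0 were called higher. The potassium channel genes *Kcnj16* and *Kcnj10* had log2 ratios of −0.60 and −0.50 without being called, and the log2 ratios of the other 5 genes lay between −0.29 and 0.18. All 8 had a brightest probe well above background on both arrays. Their median log2 ratio was −0.22, with a range from −0.95 to 0.18, against 0.03 over all genes. With 8 genes, a single call already makes a share of 12.5%, and so nothing is read from its distance to the background of 5.63%. At the level of probes, 3 of the 16 detected on either array were called lower, all of them for *Aqp4*, against 5.36% of all such probes. Of these 3, 1 was well above background in WT only and was called at its limit. It entered the count through the array where it was high, and nothing is read from this share. None (0) of the member probes was called higher, against 5.91%. Since the arrays measured whole striatum, fewer astrocytes and less RNA per astrocyte cannot be told apart.

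**Figure D1:**
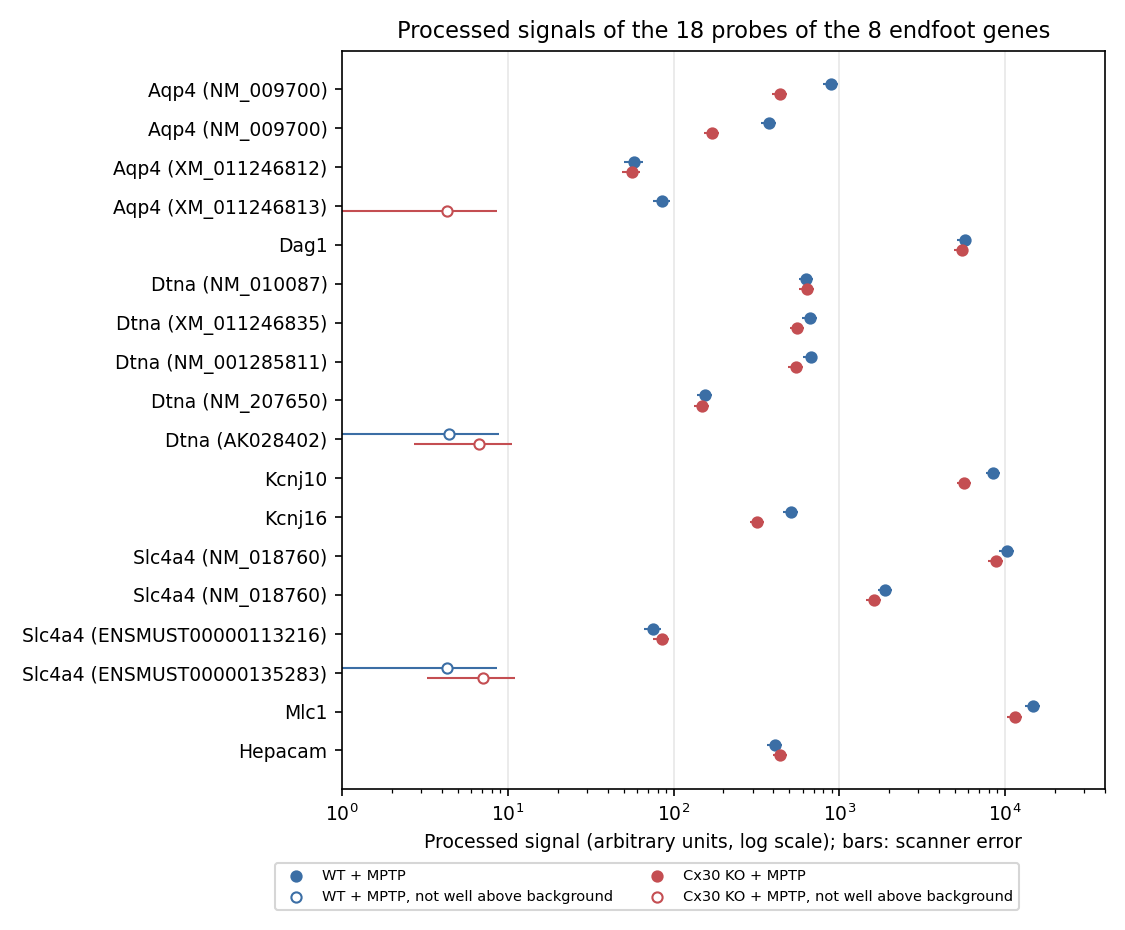
Processed signals of the 18 probes on the WT and the Cx30 KO array, in arbitrary units on a log axis, before scaling between the arrays. Points are single spots, bars are the scanner error (bars that reach below 1 leave the axis), and open points were not well above background. The signal of the brightest *Aqp4* probe was 889 in WT and 438 in Cx30 KO, whereas the points of *Dag1* nearly coincide.

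*Aqp4*, the water channel, has 4 probes along 18.5 kb of the minus strand of chromosome 18 in mm9. The brightest probe (NM_009700, chr18:15547951-15548010, position 4974 of the transcript) read 889 ± 89.0 in the WT pool against 438 ± 43.9 in the Cx30 KO pool. The next probe of the same transcript (chr18:15551966-15552025, position 959) had 375 ± 37.8 in WT and 171 ± 17.6 in Cx30 KO. At both probes the signal in Cx30 KO was lower by more than the scanner errors. The log2 ratios were −0.95 ± 0.20 and −1.06 ± 0.21, which correspond to 1.93-fold and 2.09-fold lower levels. They differ by 0.11, which is less than the SD of 0.26 between probes of a gene. These probes lie 4015 bases apart both on the genome and in the transcript, so no intron separates them.

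The other *Aqp4* probes lie upstream, carry names of predicted transcripts and gave different answers. The probe for XM_011246812 (chr18:15562690-15562749) was dim and differed by less than the scanner errors, at 57.8 ± 7.53 in WT against 55.9 ± 7.08 in Cx30 KO. Its log2 ratio of 0.02 ± 0.26 turned to −0.02 under each other scaling tried. The probe for XM_011246813 (chr18:15566493-15566552) had 85.0 ± 9.80 in WT, and in Cx30 KO it was not well above background, at 4.29 ± 4.30. Set against the lowest signal that counted as well above background, it was at least 4.66-fold lower, and after normexp background correction, which adds an offset, its log2 ratio was −1.19. These upstream probes are 3.80 kb apart, and the files list XM_011246812 for all 4 probes but NM_009700 only for the downstream ones. Of the 4 probes, 3 were called lower, and 1 of these was detected in WT only and called at its limit.

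*Kcnj10* and *Kcnj16*, which encode the inwardly rectifying potassium channel subunits Kir4.1 and Kir5.1 that assemble into a shared channel, have 1 probe each. *Kcnj10* read 8488 ± 849 in the WT pool against 5696 ± 570 in the Cx30 KO pool. *Kcnj16* had 510 ± 51.3 in WT and 321 ± 32.4 in Cx30 KO. Both signals were lower in Cx30 KO by more than the scanner errors, although neither gene was called. The log2 ratio of *Kcnj10* was −0.50 ± 0.20, a ratio of 0.705. The log2 ratio of *Kcnj16* was −0.60 ± 0.21, and its ratio of 0.6605 is just outside the limit of 0.66. Scaled by the array median, *Kcnj16* had a ratio of 0.639 and was called lower, and so it was with quantile normalisation (0.6596). A Z-score limit of 2 was also applied, over the 1000 probes nearest in mean signal. On that scale *Kcnj10* had −2.17, *Kcnj16* −1.84 and the brightest *Aqp4* probe −2.95. *Aqp4* was thus the only member to meet both limits, which 3.27% of genes met in the lower and 2.34% in the higher direction. Over probes these shares were 2.83% and 2.03%.

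*Slc4a4* encodes the electrogenic sodium bicarbonate cotransporter of astrocytes, and 3 of its 4 probes were detected. Its brightest probe read 10271 ± 1027 in the WT pool against 8814 ± 881 in the Cx30 KO pool. Another probe of NM_018760, located 3.87 kb upstream, had 1891 ± 189 and 1620 ± 162. Both gave a log2 ratio of −0.15, within the scanner error of 0.20. The probe for ENSMUST00000113216, 197 kb upstream of the brightest, had 75.1 ± 8.82 in WT against 84.7 ± 9.40 in Cx30 KO, that is, a log2 ratio of 0.25 ± 0.23. The probe for ENSMUST00000135283 was not well above background on either array.

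*Dag1* encodes dystroglycan, the receptor that links the endfoot membrane to laminin and agrin of the basal lamina. Its single probe read 5704 ± 570 in the WT pool against 5473 ± 547 in the Cx30 KO pool, for a log2 ratio of 0.01 ± 0.20. *Dtna* encodes alpha-dystrobrevin on the cytoplasmic side of the complex, and 4 of its 5 probes were detected. Its brightest probe (NM_010087, chr18:23751512-23751571) had 631 ± 63.2 in WT against 639 ± 64.0 in Cx30 KO, that is, a log2 ratio of 0.09 ± 0.20. A pair of probes that share 21 bases gave −0.18 (XM_011246835) and −0.22 (NM_001285811), and the probe for NM_207650 gave 0.00. The pair lay 42.6 kb downstream of the brightest probe, and its log2 ratios were 0.27 and 0.31 below that of the brightest. The SD of 0.26 between probes of a gene holds for single ratios. A difference between probes varies more than that, so the pair is not set apart from the brightest probe. The remaining probe, for AK028402, was not well above background.

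*Mlc1* encodes the membrane protein MLC1, and *Hepacam* encodes GlialCAM, the adhesion molecule that brings MLC1 to cell contacts. *Mlc1* read 14724 ± 1472 in the WT pool against 11440 ± 1144 in the Cx30 KO pool, for a log2 ratio of −0.29 ± 0.20. *Hepacam* had 408 ± 41.1 in WT against 440 ± 44.2 in Cx30 KO, that is, a log2 ratio of 0.18 ± 0.21. The ratio of *Mlc1* exceeded its scanner error and that of *Hepacam* did not, and neither gene was called.

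**Figure D2:**
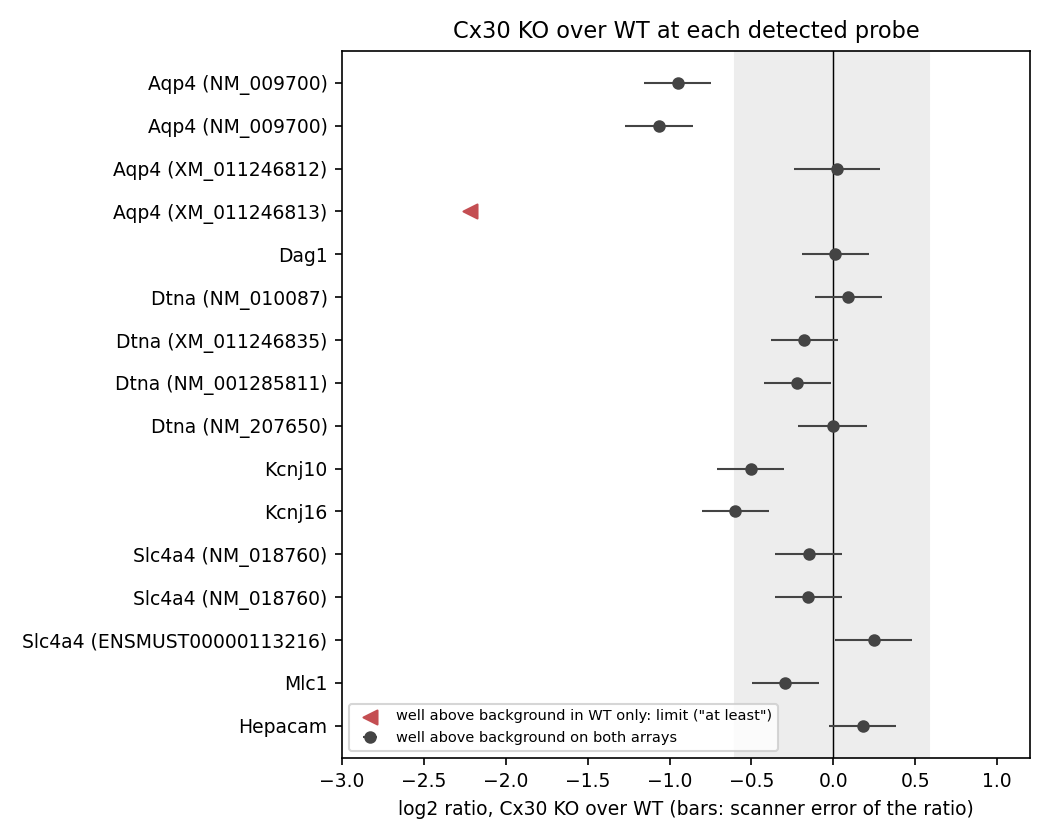
Log2 ratio of Cx30 KO over WT at the 16 probes detected on either array. Bars are the scanner error of the ratio, the grey band lies between the ratio limits of 0.66 and 1.5, and the triangle is the limit for an *Aqp4* probe seen in WT only. The 3 *Aqp4* probes called lower lie left of the band, and *Kcnj16* lies at its edge.

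Ordered by the log2 ratio of the brightest probe, *Aqp4* was lowest, followed by *Kcnj16*, *Kcnj10*, *Mlc1*, *Slc4a4*, *Dag1*, *Dtna* and *Hepacam*. The gap of 0.35 between *Aqp4* and *Kcnj16* was larger than the scanner error of that gap (0.29). That error leaves out the spread between probes, an SD of 0.26 for each single ratio. The gap alone thus does not resolve *Aqp4* from *Kcnj16*. The gaps between all other neighbours ran from 0.08 to 0.21 and were smaller than their scanner errors, so the order of the genes is not resolved step by step. The ratio was beyond 2 times its scanner error for 3 genes, *Aqp4*, *Kcnj16* and *Kcnj10*. Among all 22008 genes, 2.91% had a lower log2 ratio than *Aqp4*, 6.23% a lower one than *Kcnj16* and 7.92% a lower one than *Kcnj10*.

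**Figure D3:**
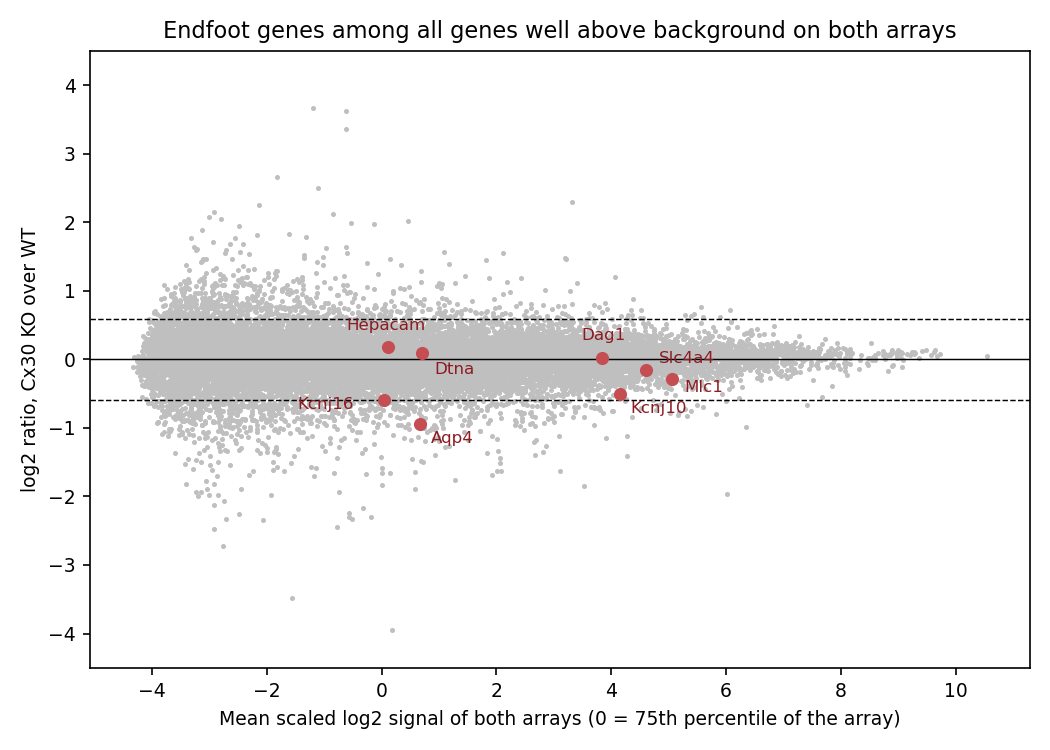
Log2 ratio of Cx30 KO over WT against the mean scaled log2 signal for the 20310 genes with a probe well above background on both arrays (grey). The 8 endfoot genes are in red, the dashed lines are the ratio limits of 0.66 and 1.5, and 1 gene lies outside the plotted range. *Aqp4* lies below the lower line, *Kcnj16* on it, and the others between the lines.

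Of 14 general astrocyte markers, 14 were well above background on both arrays and 0 were called, with a median log2 ratio of −0.03 and a range from −0.56 to 0.23. Their summed signal was 225440 in WT and 209440 in Cx30 KO. *Aqp4* and *Kcnj16* had a lower log2 ratio than all 14 of these markers, and *Kcnj10* a lower one than all but 1, *Slc25a18* (−0.56). *Slc1a2* (0.17) and *Slc1a3* (0.01), the glutamate transporters, and *Aldh1l1* (−0.32) were all nearer to 0 than *Aqp4*. *Hepacam* had a higher ratio than 13 of the 14 markers. *Gfap* and *S100a10*, genes of reactive astrocytes, are not among these markers. The paper reported both as lower in Cx30 KO than in WT after MPTP, in array values from this same series. It also found lower *S100a10* by RT-PCR 1 day after MPTP. The markers thus do not stand for all astrocyte genes.

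Markers of other cells differed between the pools. For 8 oligodendrocyte markers the summed signal was 157630 in WT against 93613 in Cx30 KO, 8 of 8 were lower and 6 were called. For 8 microglia markers it was 32253 and 21978, with 8 lower and 5 called. For 6 cortical neuron markers it was 175 and 1391, with 5 called higher and 4 of the 6 not well above background in WT, and their median was 3.24, or 2.14 with these 4 at their limits. By contrast, the 9 striatal neuron markers were all well above background and 0 were called, with sums of 491715 and 485627. Vascular markers, which border the endfeet, differed less, with a median of −0.19 for 9 endothelial and −0.12 for 8 mural genes. Of the endothelial genes, *Flt1* (−0.93) was called lower and *Cldn5* (0.30) was not called, and of the mural genes *Myh11* (−0.63) was called lower. Ependymal cells also contain aquaporin-4, and their 6 markers had a median of −0.06 with *Ccdc153* (−1.06) called lower, with 5 others not called. Of 7 choroid plexus markers, *Kcnj13* and *Sostdc1* were not well above background, and the median of the other 5 was −0.02. *Ttr* (−1.27) was called lower. *Prlr* (2.81) was called higher, with a signal not well above background in WT. *Folr1* (−0.58), *Clic6* (−0.02) and *Kl* (0.23) were not called. The part of these shifts in the values of the endfoot genes was not tested.

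The partners of the endfoot genes were described from 6 lists with 76 genes, of which 66 were detected. Of these, 2 were called lower and 1 higher, shares of 3.03% and 1.52% against backgrounds of 5.63% and 5.61%, and the median was −0.01. With quantile normalisation 4 were called lower, and nothing is read from the distance to the background. Among 12 detected partners in the dystrophin complex the median was 0.04. *Utrn*, which encodes the dystrophin relative utrophin, was called lower. It read 3889 ± 389 in WT against 2194 ± 219 in Cx30 KO, for a log2 ratio of −0.75, and its 4 other detected probes had log2 ratios from −0.55 to −0.33. None of these 4 was past the limit, so the call rests on the brightest probe alone. *Dmd*, which encodes dystrophin, had 306 ± 30.8 and 352 ± 35.4 (0.28) at its brightest probe and was not called. Its 5 other detected probes had log2 ratios from −0.06 to 0.61, the highest of them, for XM_006527768, being past the limit for higher. *Sntb1* and *Sgca* were not well above background.

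Of 14 genes of the basal lamina, the ligand side of dystroglycan, 0 were called and the median was 0.01. *Agrn*, which encodes agrin, had a log2 ratio of 0.04, the laminin gene *Lama2* −0.26, and the type IV collagen genes *Col4a1* 0.45 and *Col4a2* 0.36. Of 12 detected enzymes that build the laminin-binding sugars of dystroglycan, 0 were called, with a median of 0.04, and *Gmppb*, which supplies a sugar donor, had 0.33. The anchoring machinery thus contained a single called gene, *Utrn*.

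Among 11 other aquaporins, 5 were detected. Their log2 ratios had a median of 0.49 (0.27 with *Aqp7* at its limit), and *Aqp9* was called higher at a low signal, with 31.7 ± 5.07 in WT and 66.4 ± 7.49 in Cx30 KO (1.14). Its other detected probe went the opposite way, with a log2 ratio of −0.82 and a signal not well above background in Cx30 KO, so no direction is given for *Aqp9*. *Aqp7* was well above background in Cx30 KO only, at least 1.21-fold higher. *Aqp11* had −0.16, and *Aqp1*, the aquaporin of the choroid plexus, was not well above background on either array.

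The 14 potassium and ion transport genes of astrocytes were all detected, with a median log2 ratio of −0.20, and 11 were below 0. *Car2*, which encodes a carbonic anhydrase found in oligodendrocytes as well as astrocytes, was called lower, with 3858 ± 386 in WT and 1590 ± 159 in Cx30 KO (−1.21). The oligodendrocyte markers moved with it, with a median of −0.73 in the same pools, and their part in its value was not tested. *Atp1b2*, which encodes the astrocyte beta subunit of the sodium pump, had 13039 ± 1304 and 8191 ± 819. Its log2 ratio of −0.60 lay at the limit, as that of *Kcnj16* did, and its other probe had −0.20. *Slc12a2*, the chloride cotransporter, had −0.45, and the two-pore channel gene *Kcnk10* −0.54. Apart from *Car2*, none of the 14 genes was called.

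For 9 detected genes around MLC1 and cell volume, 0 were called and the median was −0.07. *Gprc5b* and *Gpr37l1*, which encode astrocyte receptors linked to the MLC1 complex, had −0.33 and −0.32. The other probe of *Gprc5b* had 1336 ± 134 in WT against 802 ± 80.3 in Cx30 KO. Its log2 ratio of −0.66 was past the limit for lower. The chloride channel gene *Clcn2* had 0.20 and the volume-regulated channel gene *Lrrc8a* −0.07. *Cav1*, which encodes caveolin-1, was well above background in WT only. It had 27.1 ± 5.32 in WT against 19.7 ± 4.54 in Cx30 KO (−0.39), with overlapping scanner errors. *Trpv4*, a swelling-sensitive cation channel, had 0.57 at 101 ± 11.0 in WT and 143 ± 14.8 in Cx30 KO.

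**Figure D4:**
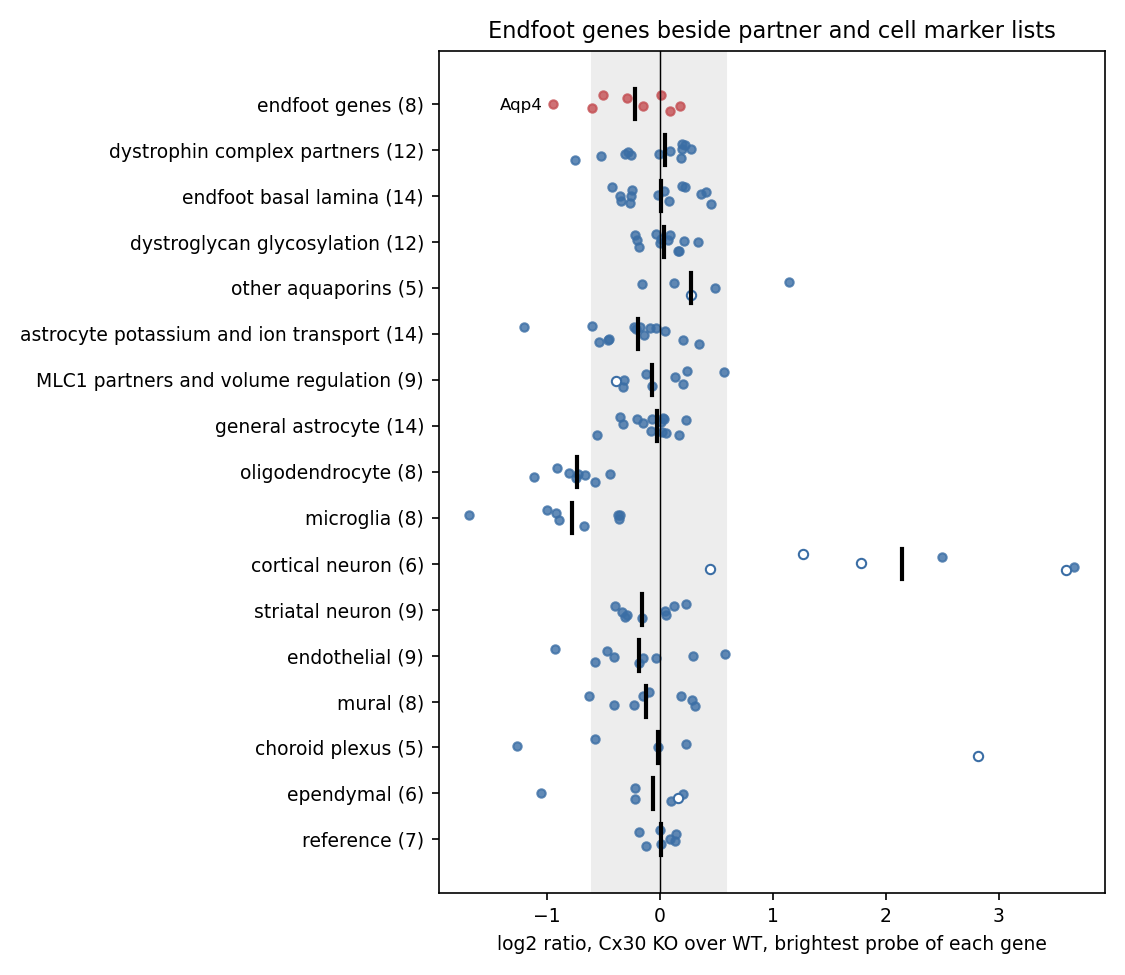
Log2 ratio of Cx30 KO over WT at the brightest probe of each detected gene, for the endfoot genes (red) and the partner and marker lists (blue), with the number of genes in brackets. Open points are genes well above background on 1 array only, at the limit described under processing. Black bars are medians taken with those limits, and the grey band lies between the ratio limits. *Aqp4* lies to the left of all 14 general astrocyte markers.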

How the data were processed

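Striatal RNA of 1 WT and 1 Cx30 KO pool was measured on Agilent 60-mer arrays. The authors deposited scanner tables, whose processed signals are background-subtracted linear intensities from Agilent Feature Extraction, given as version 10.7.1.1 in the file headers and 9.5.1.1 in the submitters' processing notes. The value table of the authors holds normalised intensities, which match quantile normalisation of those signals to within 1% for 99.99% of probes. Probe positions refer to mm9, and both arrays come from the same slide and scan.

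Control spots and outlier spots were removed, and log2 signals were scaled by the 75th percentile. Detection needed 50% of a probe's spots to be well above background, which left 32019 (WT) and 32961 (Cx30 KO) of 56605 probes, with 0 saturated. Symbols were updated through a RefSeq table (GRCm38.p6). For a probe seen on 1 array the fold is called a limit. The dim side was set to its own signal or, where that was smaller, to the lowest well above background signal (19.8 in WT, 17.4 in Cx30 KO). Where its own signal was used, the limit is the measured fold and not a minimum. Scanner errors of both spots were combined for a ratio. No test was run, as each group had 1 array.

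The members and lists were chosen with earlier results of these data known. Named by rule were all members, list genes that were called or seen on 1 array, and the brightest or defining genes; other partner and marker genes were named after their values were seen, and some list genes are not reported here by name. Python 3.11.15, pandas 2.3.3, numpy 2.4.6, R 4.3.3 and limma 3.58.1 were used, and the calls were tested on simulated data. Alternatives were quantile normalisation, median scaling, normexp (offset 50), the authors' value table, no filter, the mean over the probes of each gene, detection on both arrays, ratio limits of 2 and 0.5, and a Z-score limit over the nearest or over all probes. Limits for dim probes in the mean over probes were added after seeing the data. The number of arrays limits the precision.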

Additional observations from a re-analysis of the deposited data

How the results depend on the processing

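No paired analysis was possible because each genotype had 1 array, and for the same reason no replicate could be left out. At its brightest probe *Aqp4* was called lower under each scaling, background correction and filter tried, with log2 ratios from −0.997 (median scaling) to −0.87 (normexp). The mean over its probes was −1.05 with the probe seen in WT only at its limit, a setting added after seeing the data, and −1.56 with the Cx30 KO signal of that probe taken as measured although it was not well above background. The probe for XM_011246812 was not called. The number of members called lower was 2 with quantile normalisation, the median scaling or the authors' value table, each adding *Kcnj16*, and 0 with limits of 2 and 0.5 or with a Z-score over all probes. The number of partner genes called lower was 4 with quantile normalisation or the authors' value table, *Atp1b2* being among those added, and 1 with limits of 2 and 0.5. The number called higher was 0 with normexp or the mean of the probes, with or without limits, and 4 without a filter. The median of the other aquaporins was 0.11 with normexp and 0.16 with the mean of the probes, with or without limits. The median of the cortical neuron markers was 1.26 with normexp and 2.14 with limits, and that of the choroid plexus markers went from −0.02 to −0.30 with detection on both arrays, which leaves out *Prlr*. The cause of the other shifts was not tested. The median of the 8 members stayed between −0.27 and −0.19. The log2 ratios of *Dag1* and *Dtna* changed sign between settings, within −0.08 to 0.10. For the striatal neuron markers the median ran from −0.20 to 0.01.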
